A study of Mus musculus with 2 samples.

Results

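Cardiac fibroblasts are the interstitial cells that make and maintain the collagen network of the heart wall. Besides collagens, they are recognised by a receptor (Pdgfra), a lineage transcription factor (Tcf21) and a set of secreted or surface proteins that coat collagen fibrils, cut matrix proteins or mark particular fibroblast states. Described here are 10 such non-collagen markers, chosen as known fibroblast identity genes: Pdgfra, Tcf21, Dpt, Gsn, Dcn, Lum, Islr, Pi16, Htra3 and Lrrc15. The choice was made with earlier results of these data known, so contrasts with all genes below are a description only. All 10 were present among the 31920 gene symbols of the deposited table. They differ in role, and the levels of fibrillar collagen transcripts are set beside each of them below.

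By its title, the series concerns heart muscle disease from loss of LAMP2, a lysosomal membrane protein needed for autophagy. Left ventricular polyadenylated RNA was sequenced from 2 male mice of strain 129-SvEv, each 10 weeks old: a wildtype and a Lamp2 knockout as labelled. The labels name no treatment and do not describe the knockout allele. The libraries held 8410593 and 8773820 reads assigned to genes. With 1 library per group there is no replicate check, no spread between animals is known and no p-value is given. The 95% intervals below cover counting error only. The Lamp2 row held 990 and 986 reads, so the count over the whole gene does not check the label, and the second library is called the library labelled knockout throughout. In bulk tissue, fewer cells of a type and less RNA per cell cannot be told apart.

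Levels are given as reads per 1000000 reads assigned to genes (RPM). A gene was counted as measured if it reached 5 RPM in the higher library, and as lower or higher if log2((labelled knockout RPM + 1)/(wildtype RPM + 1)) was -1 or below, or 1 or above, which is a 2-fold difference. All 10 markers were measured. Of these, 4 were at least 2-fold lower in the library labelled knockout (Lrrc15, Lum, Islr and Pi16) and 0 were at least 2-fold higher. Over all 10209 measured genes, 2.37% were lower and 3.35% higher by the same rule. The other 6 markers split further. Tcf21 and Dpt had ratios of 0.554 and 0.562, while Gsn, Pdgfra, Htra3 and Dcn lay between 0.971 and 1.04.

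**Figure D1:**
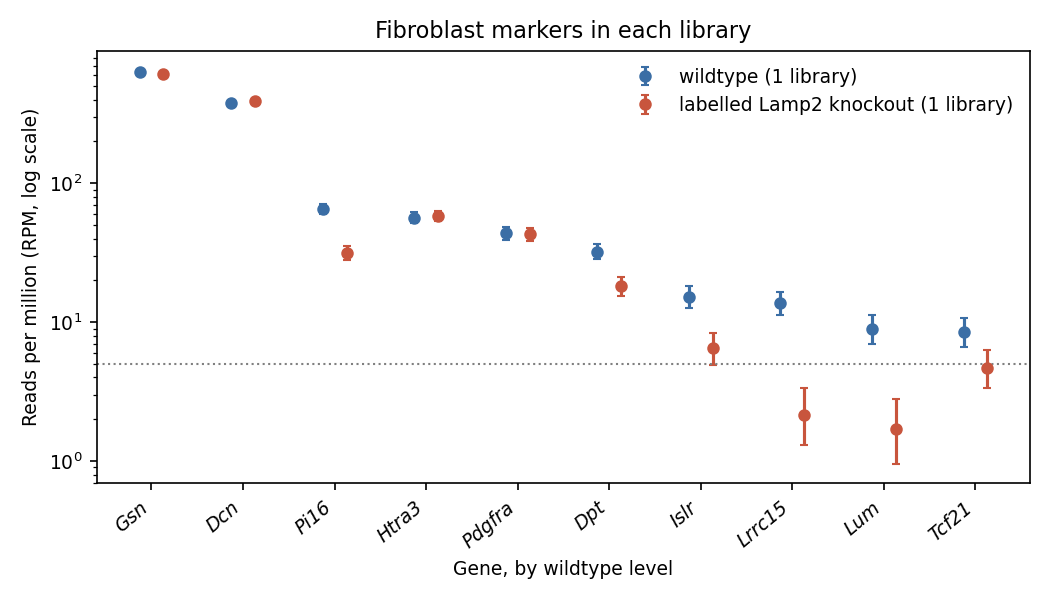
RPM of each marker in the wildtype library (blue) and the library labelled Lamp2 knockout (red) on a log axis, with exact Poisson 95% intervals of the counts; the dotted line is the 5 RPM minimum. Gsn and Dcn overlie each other in the libraries, while Lum and Lrrc15 drop from 8.92 and 13.7 RPM to 1.71 and 2.17 RPM.

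The promoters of 3 of the 4 markers counted as lower, and of 2 markers with ratios near 1, are shown as examples. RefSeq promoters of the GRCm38.p6 build matched 8 of the 10 markers; Dcn and Lum had no entry. Each window is the 250 bases before the RefSeq start, written 5′ to 3′ on the gene's strand. Capitals mark E-boxes, spelled CANNTG, the class of site bound by basic helix-loop-helix factors such as the Tcf21 protein, and AP-1 sites, spelled TGANTCA.
Lrrc15 promoter, chr16:30283255-30283504, minus strand: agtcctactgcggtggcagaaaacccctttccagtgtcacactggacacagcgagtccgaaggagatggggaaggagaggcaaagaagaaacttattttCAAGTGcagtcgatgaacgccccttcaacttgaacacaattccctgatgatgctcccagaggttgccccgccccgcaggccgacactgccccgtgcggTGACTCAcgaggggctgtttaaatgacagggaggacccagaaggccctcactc
Islr promoter, chr9:58158555-58158804, minus strand: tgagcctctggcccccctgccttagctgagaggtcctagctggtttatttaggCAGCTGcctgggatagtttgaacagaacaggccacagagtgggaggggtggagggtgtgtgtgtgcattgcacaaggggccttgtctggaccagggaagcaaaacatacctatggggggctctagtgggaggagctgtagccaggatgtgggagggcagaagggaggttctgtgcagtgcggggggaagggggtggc
Pi16 promoter, chr17:29318632-29318881, plus strand: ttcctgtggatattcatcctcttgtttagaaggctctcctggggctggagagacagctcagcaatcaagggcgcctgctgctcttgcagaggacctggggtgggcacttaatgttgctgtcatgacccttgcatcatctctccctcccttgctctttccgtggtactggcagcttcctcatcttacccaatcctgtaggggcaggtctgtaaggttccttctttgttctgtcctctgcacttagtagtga
Pdgfra promoter, chr5:75152001-75152250, plus strand: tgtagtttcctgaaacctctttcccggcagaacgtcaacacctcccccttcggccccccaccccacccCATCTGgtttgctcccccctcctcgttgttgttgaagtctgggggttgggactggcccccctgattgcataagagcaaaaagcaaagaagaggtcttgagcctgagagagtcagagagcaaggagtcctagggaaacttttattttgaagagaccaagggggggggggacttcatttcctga
Htra3 promoter, chr5:35679781-35680030, minus strand: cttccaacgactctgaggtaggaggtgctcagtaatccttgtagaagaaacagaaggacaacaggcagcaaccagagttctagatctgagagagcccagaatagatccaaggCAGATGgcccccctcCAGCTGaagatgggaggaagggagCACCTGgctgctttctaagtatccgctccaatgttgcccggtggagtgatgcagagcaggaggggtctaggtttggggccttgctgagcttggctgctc
The starts of Lrrc15 and Pi16 coincide with those of their deposited rows, whereas the RefSeq start of Islr lies inside its row. The Lrrc15 window held 1 E-box at position -151 and 1 AP-1 site at position -53, counting the base before the start as -1 and giving the motif's first base. The Islr and Pdgfra windows each held 1 E-box, at -197 and -182, and the Htra3 window held 3. The Pi16 window, like that of Tcf21 (not shown), held 0. Also not shown, the Dpt window held 6 and the windows of Gsn held 1, 2 and 2. An E-box was found in 66.2% and an AP-1 site in 6.75% of all 32851 RefSeq promoter windows of this length. CATTCC (the MCAT element) and TATAAA, searched on both strands, were found in 12.6% and 12.4% of all windows and in none of the windows of the 8 markers. These matches describe letters only. E-box counts of 0 and 1 occurred both among the markers counted as lower and among the others, and the higher counts only among the others.

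The identity genes of the resident fibroblast did not behave as one. Pdgfra encodes the alpha receptor for platelet-derived growth factor and marks nearly all resident cardiac fibroblasts. It lies on the plus strand of chromosome 5 from 75152291 to 75198204 in the mm10 build. Its row held 367 wildtype reads and 376 in the library labelled knockout, or 43.6 and 42.9 RPM, a ratio of 0.982 (95% interval 0.848 to 1.14). The interval holds 1, so no difference was detectable at this depth on the RPM scale. With a total that omits mitochondrial and the 10 most abundant transcripts, the ratio was 0.857 (0.741 to 0.993). Tcf21, the transcription factor that sets the fibroblast lineage in cells derived from the epicardium (chromosome 10, 22817275 to 22820128, minus strand), had 71 and 41 reads. These are 8.44 and 4.67 RPM, a ratio of 0.554 (0.367 to 0.824). Its level was lower beyond counting error but short of the 2-fold rule. A cDNA clone row on the opposite strand overlaps Tcf21 and held 2 and 0 reads; the other 9 rows are overlapped by no opposite-strand row.

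The ratios of Pdgfra and Tcf21 differed from each other. Tcf21 reads per 100 Pdgfra reads were 19.3 in the wildtype and 10.9 in the library labelled knockout, a quotient of 0.564 (0.374 to 0.850). Such a quotient is formed within each library and does not depend on how the libraries are scaled.

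Among the secreted proteins that bind collagen fibrils, decorin, lumican and dermatopontin had 3 different values. Dcn encodes decorin, a small leucine-rich proteoglycan that coats fibrils and binds growth factors (chromosome 10, 97479500 to 97518162, plus strand). It had 3186 and 3450 reads, at 379 and 393 RPM, a ratio of 1.04 (0.989 to 1.09). Lum encodes lumican, a proteoglycan of the same family that regulates fibril thickness (chromosome 10, 97565501 to 97572703, plus strand). Its 75 wildtype reads compare with 15 in the library labelled knockout, at 8.92 and 1.71 RPM, a ratio of 0.192 (0.102 to 0.337). The wildtype level was above that of the other library beyond counting error, although the value rests on few reads. Dpt encodes dermatopontin, which binds decorin and speeds fibril assembly (chromosome 1, 164796732 to 164824266, plus strand). Its 271 and 159 reads gave 32.2 and 18.1 RPM and a ratio of 0.562 (0.459 to 0.687).

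Dcn and Lum are neighbours on the same strand, with 47338 bases between their rows and no other listed gene between them. Lum reads per 100 Dcn reads were 2.35 in the wildtype and 0.435 in the library labelled knockout, a quotient of 0.185 (0.106 to 0.322). The next family members along the chromosome, Kera and Epyc, had 0 reads in both libraries, so their levels could not be compared; 3 reads correspond to 0.357 and 0.342 RPM. Of 2 adjacent family members with reads, 1 thus lay near a ratio of 1 and 1 far below it.

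The markers of fibroblast subsets and states were lower in the library labelled knockout. Pi16 encodes a secreted peptidase inhibitor-like protein that marks progenitor-like fibroblasts around vessels (chromosome 17, 29318882 to 29329099, plus strand). It had 551 and 276 reads, at 65.5 and 31.5 RPM, a ratio of 0.480 (0.414 to 0.556). Its log2 ratio of -1.04 was the closest to the 2-fold rule from inside, and that of Dpt, -0.80, the closest from outside. Islr encodes meflin, a membrane-anchored protein with leucine-rich repeats that marks undifferentiated stromal cells (chromosome 9, 58156264 to 58159221, minus strand). Its 128 and 57 reads gave 15.2 and 6.50 RPM, a ratio of 0.427 (0.307 to 0.588). Lrrc15 encodes a leucine-rich repeat membrane protein known from fibroblasts activated by TGF-beta (chromosome 16, 30269302 to 30283254, minus strand). It had 115 and 19 reads, at 13.7 and 2.17 RPM, a ratio of 0.158 (0.0920 to 0.259). Only 0.0882% of measured genes had a lower log2 ratio than Lrrc15, and 0.264% a lower one than Lum.

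Gsn and Htra3, which act on actin and on secreted substrates, differed little on the deposited scale. Gsn encodes gelsolin, an actin-severing protein made in quantity by cardiac fibroblasts but also by other cells (chromosome 2, 35256359 to 35307902, plus strand). It had 5312 and 5383 reads, at 632 and 614 RPM, a ratio of 0.971 (0.935 to 1.01). Htra3 encodes a secreted serine protease (chromosome 5, 35652033 to 35679782, minus strand). Its 475 and 512 reads gave 56.5 and 58.4 RPM, a ratio of 1.03 (0.910 to 1.17). For both genes the interval holds 1 on the deposited scale. Relative to Pdgfra, the quotients of Gsn, Htra3 and Dcn were 0.989 (0.852 to 1.15), 1.05 (0.870 to 1.27) and 1.06 (0.908 to 1.23).

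**Figure D2:**
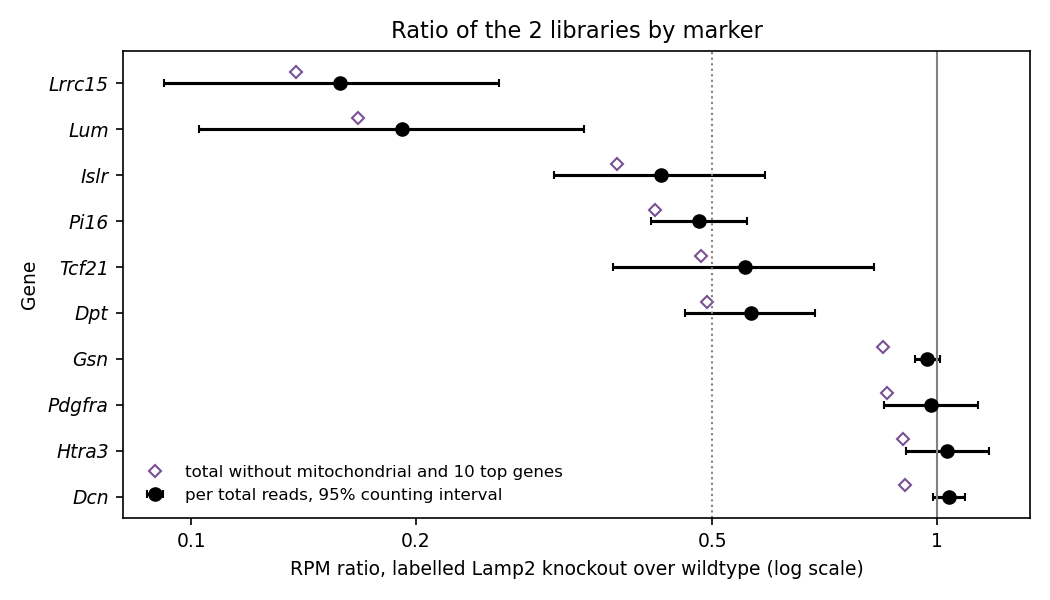
RPM ratio of the library labelled Lamp2 knockout over the wildtype for each marker (log axis), with 95% counting intervals (black) and the ratio after scaling to a total that omits mitochondrial and the 10 most abundant transcripts (open diamonds). A gap separates Dpt at 0.562 from Gsn at 0.971; the solid line is a ratio of 1 and the dotted line 0.5.

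In order of ratio, the markers fell into 3 sets, divided where neighbours differed beyond counting error. The order and the sets come from these same ratios, with no allowance for choosing the gaps, so they are a description only. Lrrc15 and Lum stood at 0.158 and 0.192 and did not differ from each other beyond counting error. The ratio of Islr exceeded that of Lum by a factor of 2.23 (1.18 to 4.21). Islr, Pi16, Tcf21 and Dpt, from 0.427 to 0.562, did not differ between neighbours. The ratio of Gsn exceeded that of Dpt by a factor of 1.73 (1.41 to 2.11), and Gsn, Pdgfra, Htra3 and Dcn again did not differ between neighbours. The ends of this last set did differ, with a quotient of Gsn per Dcn read of 0.936 (0.880 to 0.995). Intervals of the ratio lay below 1 for 6 of 10 markers, against 16.8% of measured genes, and above 1 for 0, against 35.0%. The median log2 ratio of the markers was -0.77, against 0.11 over all measured genes, and all 10 lay below that value. Their range was -2.21 to 0.05.

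The scale bears on the 4 markers near 1. Mitochondrial transcripts took 26.5% of reads in the wildtype and 16.2% in the library labelled knockout, and RPM of other genes depend on that share. Rescaling by the median ratio, by a trimmed mean of log ratios, or by a total that omits mitochondrial and the 10 most abundant transcripts shifted log2 ratios by -0.12, -0.12 and -0.20. Over all measured genes the 342 higher and 242 lower became 244 and 308, 243 and 310, or 209 and 375. Dcn and Htra3, above 1 on the deposited scale, were below 1 under all 3, at 0.906 (0.863 to 0.951) and 0.902 (0.795 to 1.02) with the last. Under that scale Pdgfra was at 0.857 (0.741 to 0.993) and Gsn at 0.848 (0.816 to 0.881). The interval of Gsn also lay below 1 with the median ratio, at 0.896 (0.862 to 0.931), and the trimmed mean, at 0.894 (0.861 to 0.929). The markers counted as at least 2-fold lower were Lum, Islr, Pi16 and Lrrc15 under each of the 3 rescalings. On the last scale, 9 of 10 intervals lay below 1, against 30.3% over all measured genes. With the median ratio and the trimmed mean, 7 of 10 did, against 24.1% and 24.3%.

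**Figure D3:**
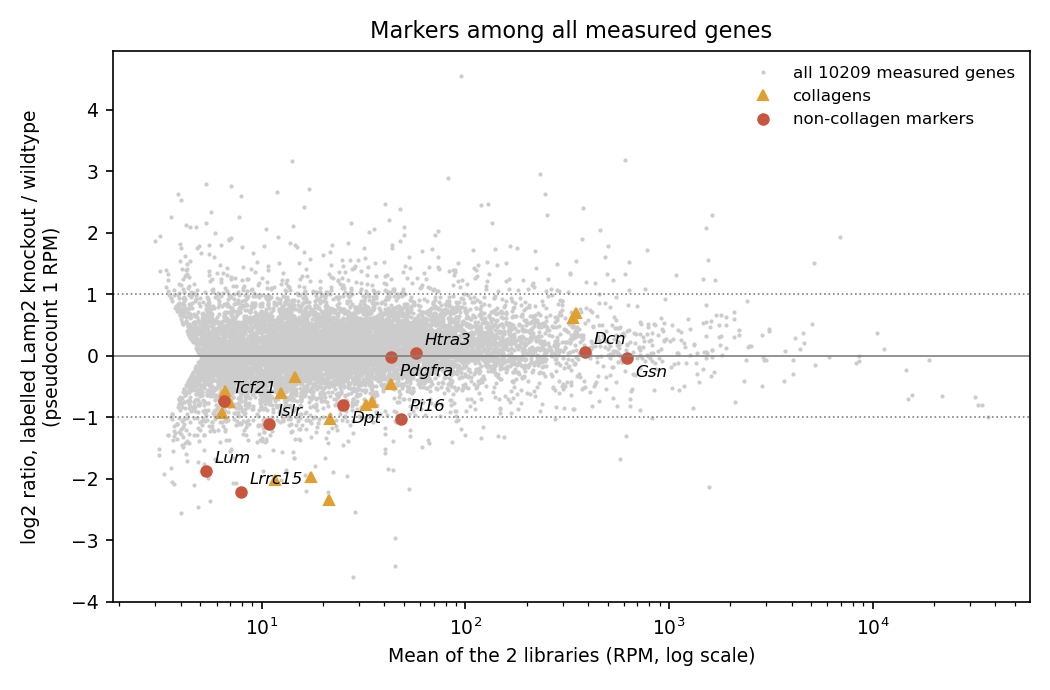
log2 ratio (pseudocount 1 RPM) against the mean RPM of the libraries (log axis) for all 10209 measured genes (grey), the collagens (triangles) and the 10 markers (circles, named); dotted lines mark the 2-fold rule. Pi16 and Pdgfra have similar mean levels and log2 ratios of -1.04 and -0.03.

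Read depth differed between the markers. By mean RPM, Gsn and Dcn stood above 98.3% and 97.2% of measured genes, Htra3, Pi16 and Pdgfra above 77.4%, 73.3% and 70.2%, and Lum above 5.37%. The markers near a ratio of 1 were among those of higher mean RPM, and Lum and Lrrc15 among those of lower. Pi16 and Pdgfra had similar mean RPM, from 65.5 and 31.5 RPM and from 43.6 and 42.9 RPM in the 2 libraries. Together the markers took 1254 RPM in the wildtype and 1173 RPM in the library labelled knockout, a ratio of 0.935 (0.910 to 0.961). Gsn and Dcn made up 80.5% and 85.9% of those reads. Without them, the other 8 markers summed to 244 and 166 RPM, a ratio of 0.679 (0.635 to 0.727), so the sum over all 10 mainly reflects these 2 genes.

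Levels of different genes can be compared only per length. Per kilobase of annotated exon sequence (GENCODE M21, union of all exons), Gsn was highest at 200 RPM per kilobase in the wildtype and 194 in the library labelled knockout. Dcn followed at 64.9 and 67.4, and Dpt and Htra3 came next at 18.7 and 12.7 in the wildtype. In the library labelled knockout Htra3, at 13.1, stood above Dpt, at 10.5. Pi16 was at 10.3 and 4.94, Islr at 5.67 and 2.42, and Pdgfra at 4.35 and 4.28, so Pdgfra moved above Islr in the second library. Lum and Tcf21, at 3.64 and 3.59, were indistinguishable in the wildtype, and Lrrc15 was lowest in both, at 2.57 and 0.408. With the length of the longest protein-coding transcript instead, a choice made after the data were seen, Dcn in the wildtype came to 215 and Gsn to 238. Htra3, at 20.5, then exceeded Dpt in the wildtype too.

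Other genes of the same families and pathways were read beside the markers. Of 13 measured ligands, receptors, partners and paralogs of the markers, 0 were at least 2-fold lower and 0 higher. The shares of all measured genes were 2.37% and 3.35%. The median log2 ratio of the 13 was 0.07. Svil, which encodes the gelsolin relative supervillin, was at 215 and 203 RPM (ratio 0.943, 0.883 to 1.01). Tcf4, which encodes a basic helix-loop-helix partner protein, was at 144 and 151 RPM. Pdgfrb, the beta receptor of pericytes and some fibroblasts, named outside the naming rule, was at 66.7 and 64.9 RPM, a ratio of 0.972 (0.864 to 1.09).

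Of 8 measured small leucine-rich proteoglycans besides Dcn and Lum, 2 were at least 2-fold lower and 0 higher. Of all measured genes, 2.37% were lower and 3.35% higher. The median log2 ratio of the 8 was -0.56. Neither of the 2 lower proteoglycans met the rule with a pseudocount of 5 RPM. Ogn, which encodes osteoglycin, was at 19.9 and 7.86 RPM, a ratio of 0.396 (0.295 to 0.527). An opposite-strand row with 5 and 8 reads overlaps it. Fmod, which encodes the fibril-binding fibromodulin, was at 5.71 and 1.82 RPM (0.320, 0.169 to 0.573). The abundant Bgn, which encodes the decorin relative biglycan, was at 148 and 155 RPM, a ratio of 1.05 (0.970 to 1.13). Prelp, another matrix-binding member, was at 39.5 and 21.7 RPM (0.549, 0.457 to 0.658). The family thus held values near 1 (Dcn, Bgn) and below 0.5 (Lum, Fmod, Ogn).

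A wider list of 26 measured fibroblast genes held no collagen and none of the 10 markers. Of the 26, 0 were at least 2-fold lower and 1 was higher, against 2.37% and 3.35% of all measured genes. The median log2 ratio of the list was -0.20, and 19 of 26 were below 0, against 38.8% of all measured genes. The higher gene was Nbl1, which encodes a secreted antagonist of bone morphogenetic proteins, at 11.9 and 26.6 RPM (ratio 2.23, 1.76 to 2.85). It no longer met the rule under each of the 3 rescalings, nor with a pseudocount of 5 RPM. Clec3b, which encodes tetranectin, was at 106 and 83.2 RPM (0.782, 0.708 to 0.863), and the globin gene Cygb at 82.6 and 97.2 RPM (1.18, 1.06 to 1.30). An opposite-strand row overlaps Cygb. The surface marker gene Thy1, named outside the rule, was at 9.99 and 4.79 RPM. Its ratio of 0.479 (0.323 to 0.702) gave a log2 ratio of -0.92 with the pseudocount and so missed the rule.

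**Figure D4:**
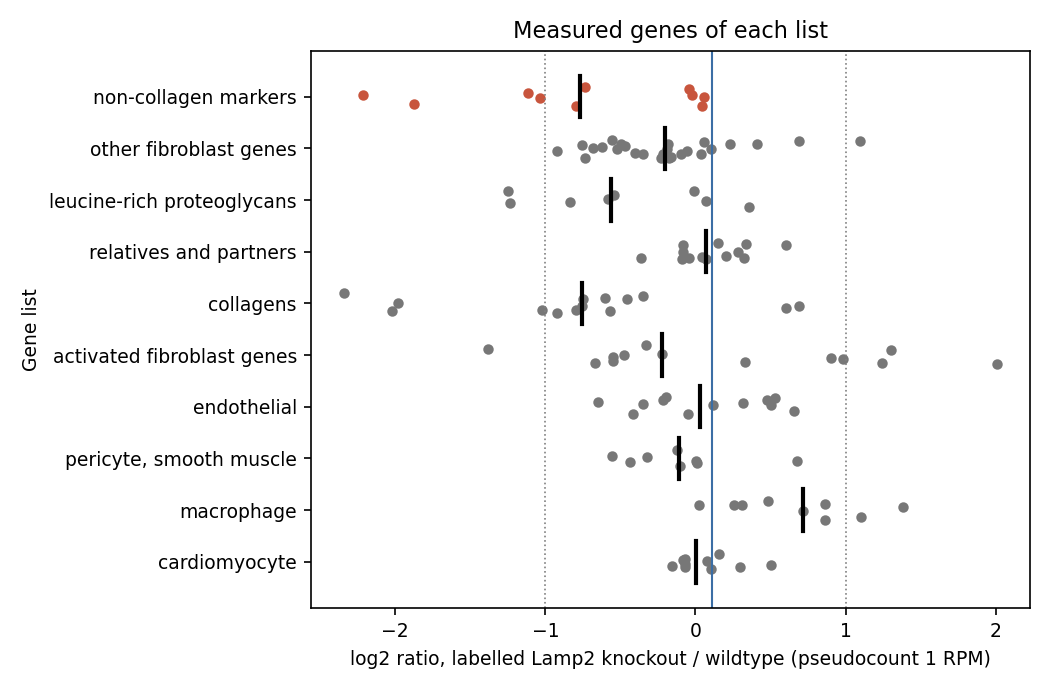
log2 ratio (library labelled Lamp2 knockout over wildtype, pseudocount 1 RPM) of every measured gene in each list, with the list median as a black bar and the median of all measured genes, 0.11, as a blue line; dotted lines mark the 2-fold rule. The 10 markers (red) lie in separate groups from -2.21 to 0.05, and the macrophage list is centred at 0.72.

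The question of marker level against matrix output was addressed with the fibrillar collagen genes Col1a1, Col1a2 and Col3a1, whose own ratios were 0.228, 0.724 and 0.175. Their summed reads per 100 Pdgfra reads were 263 in the wildtype and 114 in the library labelled knockout, a quotient of 0.434 (0.362 to 0.522). Per 100 Dcn reads they were 30.3 and 12.5, a quotient of 0.411 (0.363 to 0.465). Per Htra3 and per Gsn read the quotients were 0.413 (0.349 to 0.489) and 0.439 (0.390 to 0.495). Relative to these 4 markers, the summed reads of Col1a1, Col1a2 and Col3a1 were thus lower in the library labelled knockout on any scale.

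Relative to the other 6 markers the answer differed. The quotient was 0.759 (0.605 to 0.951) per Dpt read, 0.771 (0.516 to 1.15) per Tcf21 read, 0.889 (0.739 to 1.07) per Pi16 read and 0.9996 (0.717 to 1.39) per Islr read. It was above 1 per Lum read, at 2.23 (1.26 to 3.92), and per Lrrc15 read, at 2.69 (1.64 to 4.43). The collagens also differed among themselves. Per Pdgfra read, the quotients of Col1a1 and Col3a1 were 0.232 (0.168 to 0.320) and 0.179 (0.130 to 0.246), and that of Col1a2 was 0.737 (0.600 to 0.904). Per Islr read, those of Col1a1 and Col3a1 were 0.533 (0.349 to 0.816) and 0.411 (0.269 to 0.627), and that of Col1a2 was 1.69 (1.20 to 2.39). Per Pi16 read they were 0.474 (0.343 to 0.655), 0.365 (0.265 to 0.503) and 1.51 (1.23 to 1.85). The summed quotients near 1 for Islr and Pi16 thus join collagens that differ in direction. Col1a1 and Col3a1 had quotients near 1 per Lum read, at 1.19 (0.636 to 2.22) and 0.915 (0.491 to 1.71).

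**Figure D5:**
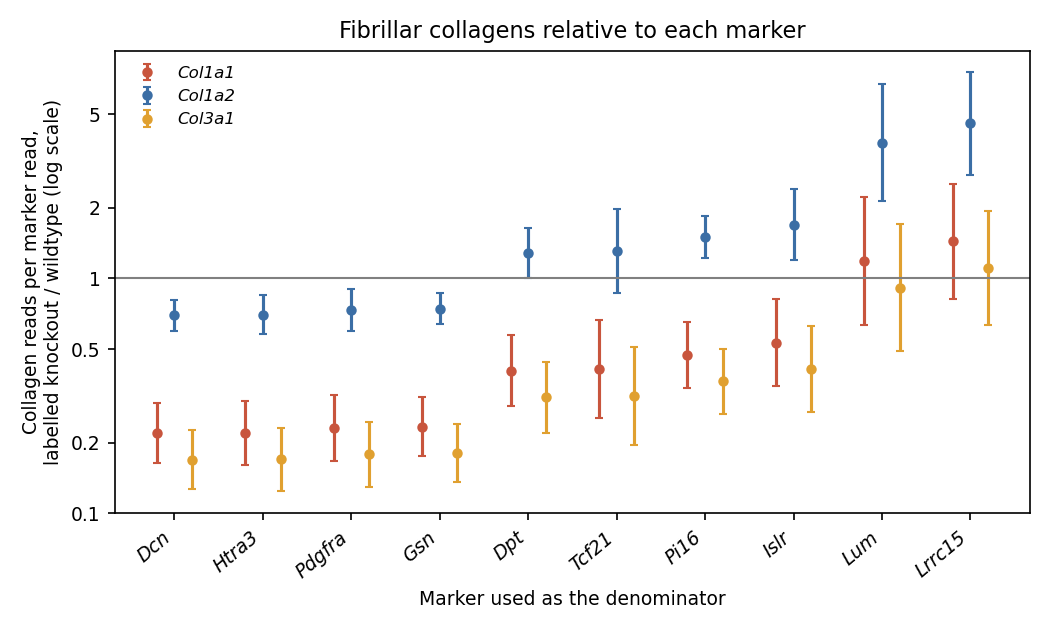
Reads of each fibrillar collagen gene per read of the marker on the x axis, as the quotient of the library labelled Lamp2 knockout over the wildtype (log axis), with 95% counting intervals. Col1a1 and Col3a1 lie between 0.169 and 0.234 per Dcn, Htra3, Pdgfra or Gsn read and between 0.915 and 1.44 per Lum or Lrrc15 read, and Col1a2 lies above both throughout.

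Of 14 measured collagen genes, 4 were at least 2-fold lower (Col1a1, Col3a1, Col5a1 and Col15a1) and 0 higher, with a median of -0.75. Over all measured genes, 2.37% were lower and 3.35% higher. Intervals of the ratio lay below 1 for 12 of the 14 and above 1 for 2, against 16.8% and 35.0% of all measured genes. The abundant basement membrane genes Col4a1 and Col4a2, which many cell types express, were at 266 and 430 RPM and at 268 and 408 RPM. With them included, the 18 listed collagen genes summed to 849 and 1000 RPM, a ratio of 1.18. Among 13 measured genes of activated fibroblasts other than collagens and Lrrc15, 1 was at least 2-fold lower and 3 were higher, with a median of -0.22. With a minimum of 20 RPM, 0 were lower and the median was 0.34. With a minimum of 1 RPM, 3 were lower. Lox, which encodes a collagen cross-linking enzyme, was at 12.8 and 54.7 RPM, and the growth factor-like gene Ctgf at 874 and 2070 RPM. Thbs2, which encodes a matrix thrombospondin, was at 65.9 and 164 RPM. Wisp2, a relative of Ctgf, was lower at 6.66 and 1.94 RPM (ratio 0.291, 0.159 to 0.508). Opposite-strand rows overlap Lox and Ctgf, with 9 and 33 and with 1560 and 4095 reads. The matricellular gene Postn and the smooth muscle actin gene Acta2, both named outside the rule, were at 4.52 and 5.93 RPM and at 57.8 and 41.3 RPM.

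Markers of other cell types were read beside these values. Of 12 measured endothelial markers, 0 were 2-fold apart, where 2.37% of all measured genes were lower and 3.35% higher. Their intervals of the ratio lay below 1 for 5 and above 1 for 5, against 16.8% and 35.0% of all measured genes. The list summed to 1061 and 1087 RPM, so the sum joins members that differ in direction. Of 8 measured pericyte and smooth muscle markers, 0 were 2-fold apart, with sums of 981 and 904 RPM. Here 5 intervals lay below 1 and 1 above. The 10 cardiomyocyte markers summed to 59940 and 60029 RPM, so defining transcripts of heart muscle were abundant in both. Of 14 macrophage markers, 9 were measured and 2 were at least 2-fold higher (C1qa and C1qb), against 3.35% of all measured genes. All 9 had a log2 ratio above 0, whereas 38.8% of all measured genes were below 0. The list summed to 222 and 395 RPM. With the scaling that omits mitochondrial and the 10 most abundant transcripts, the ratio of C1qa was 1.90 (1.66 to 2.18), short of the rule. Below the 5 RPM minimum, the same list also held genes that were lower, both named after their values were seen: Cx3cr1 had 29 and 6 reads (ratio 0.198, 0.0673 to 0.486) and Fcgr1 had 9 and 0. None of the 14 was at 0 reads in both libraries. Of 4 neutrophil markers in the table, 1 was measured, S100a9, with 5 and 88 reads (ratio 16.9, 6.96 to 53.2), and the list summed to 1.55 and 14.4 RPM. The erythroid list, with 3 genes in the table and 2 measured, summed to 165 and 140 RPM. The part of these cells in the marker ratios was not tested. The sums were 4.99 and 1.71 RPM for Schwann cell markers, 6.06 and 1.71 RPM for adipocyte markers and 0.713 and 0.912 RPM for lymphocyte markers, of which 3 were at 0 in both.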

How the data were processed

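Both libraries come from 1 table of 31920 gene symbols. The submitters' processing notes name STAR, mm10 and GRCm38. Which tool counted the reads, on which annotation, with what rule for multiply mapped reads and whether by strand is not given in the sources used here. Read counts were deposited by the authors as whole numbers without normalization. The deposited RPM equal each count per 1000000 counts of its library, to within 5e-05. The fold (ratio) and p-value columns of the authors, per the file headers, were not used. Deposited starts count from 0 and are given plus 1.

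The groups follow the genotype labels. No test was made, since each group has 1 library. Ratios are of RPM with no pseudocount added, and their 95% intervals are exact (Clopper-Pearson, conditional on the summed reads). Quotients of genes within a library, and factors between markers, have delta-method intervals on log counts. The reads carry no stated molecular identifiers and are not independent molecules, so intervals and floors cover counting error only. The markers and lists were chosen with earlier results of these data known. Named were all markers, Lamp2, the genes of each related list past the 2-fold rule (up to 6), its 2 most abundant genes, and up to 3 abundant genes of each cell type list. Exceptions are marked, apart from the collagens used as numerators. The intervals and the 2-fold rule were tested on simulated data. Alternatives were 3 rescalings, other pseudocounts, minimums and folds, and a length and GC correction. The trimmed mean left out 30% of ratios and 5% of levels at each end. Python 3.11.15, numpy 2.4.6, pandas 2.3.3, scipy 1.17.1 and matplotlib 3.10.9 were used.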

Additional observations from a re-analysis of the deposited data

How the results depend on the processing

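With 1 library per group, no library could be left out. No paired analysis was possible because each group has 1 library. Of the 10 markers, 4 were at least 2-fold lower, and this number was the same under the 3 rescalings, a pseudocount of 0.1 RPM, minimums of 1 RPM or none, and a correction for transcript length and GC content that was added after the data were seen. It was 2 with a pseudocount of 5 RPM and 2 with a 3-fold rule, leaving Lum and Lrrc15 in both cases, and 1 (Pi16) with a minimum of 20 RPM, which keeps 6 markers. With a 1.5-fold rule it was 6. The share of all measured genes counted as lower was 0.735%, 0.451%, 1.57% and 7.30% under these 4 settings, against 2.37%. No marker was counted as higher under any of these. The median log2 ratio of -0.77 lay between -0.58 and -0.94, except with the 20 RPM minimum, where it was -0.0336 because Lum, Islr, Lrrc15 and Tcf21 are then not measured. Of the wider fibroblast list, 1 was lower under each of the 3 rescalings and with a pseudocount of 0.1 RPM, and 5 with a 1.5-fold rule, against 0. Its 1 higher gene became 0 under the 3 rescalings, a pseudocount of 5 RPM and the 3-fold rule, and 2 with the 1.5-fold rule. Of the collagens, 9 were lower and 2 higher with a 1.5-fold rule, against 4 and 0. The 4 lower became 5 under each of the 3 rescalings and with a pseudocount of 0.1 RPM. They became 3 with a pseudocount of 5 RPM, a minimum of 20 RPM or the 3-fold rule. Of the quotients per marker with Col1a1, Col1a2 or Col3a1 taken alone, 29 lay outside the counting interval of the summed quotient and 1 inside. Of the other proteoglycans, the 2 lower became 0 with a pseudocount of 5 RPM, a minimum of 20 RPM or the 3-fold rule. Of the activated fibroblast genes, the 1 lower became 3 with a minimum of 1 RPM or none, 2 with the 1.5-fold rule, and 0 with a pseudocount of 5 RPM, a minimum of 20 RPM or the 3-fold rule. Their 3 higher became 5 and 1 with the 1.5-fold and 3-fold rules, and their median turned from -0.22 to 0.34 with the 20 RPM minimum. Lum and Lrrc15 rest on 15 and 19 reads in the library labelled knockout, so their ratios are the least closely known.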

Other observations

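Lists of cells that can lie close to fibroblasts in a ventricle sample held few reads. Of 9 epicardial markers, 3 were measured. Upk3b, a surface gene of the mesothelial layer over the heart, was at 9.51 and 2.96 RPM, a ratio of 0.312 (0.192 to 0.490). Wt1 and Tbx18, transcription factor genes of the same layer, had ratios of 0.786 (0.507 to 1.21) and 1.43 (0.954 to 2.15), both within counting error of 1. The list summed to 35.7 and 25.2 RPM. Of 7 markers of valve, tendon and cartilage cells, 3 were measured, and Sox9, a transcription factor gene of cartilage and valve cells, had 54 and 7 reads, a ratio of 0.124 (0.0477 to 0.274). The other two, Scx and Nfatc1, lay above 1, at 1.29 (1.003 to 1.65) and 1.39 (1.15 to 1.69). An opposite-strand row with 173 and 212 reads overlaps Scx, which had 114 and 153. Under each of the 3 rescalings the interval of Scx holds 1, as with the median ratio, at 1.19 (0.925 to 1.53). The list summed to 42.4 and 49.0 RPM. The part of these cells in the values of Tcf21, Lum or Lrrc15 was not tested.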
